A study of Mus musculus with 9 samples.

Results

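The E2F transcription factors and the pocket proteins that restrain them were followed in MYCN-driven T cell lymphoma and in control CD4 T cells. The members are the 10 genes E2f1, E2f2, E2f3, E2f4, E2f6, E2f7, E2f8, Rb1, Rbl1 and Rbl2, found by symbol among the 46078 genes of the count table. Each symbol matched 1 gene, and all 10 passed the filter on low counts that left 15401 tested genes. Ends of transcripts were sequenced in 6 samples labelled as lymphoma cells induced by MYCN from the thymus (lymphomas 34, 53, 56, 70, 72 and 86) and in 3 samples of CD4+ T cells from the spleen (CD4 1, 2 and 3). The strain given for all 9 is C57BL/6J. The labels name no treatment, age, time, promoter of the MYCN transgene or Cre driver, and they do not say whether the samples of a group came from separate animals, so p-values measure the spread between these samples. Tissue and group coincide, so thymus against spleen and lymphoma against control cannot be told apart.

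E2F proteins bind DNA, mostly together with a DP partner, and control genes that a cell needs to enter and pass through S phase. E2F1, E2F2 and E2F3 are the activating members, E2F4 and E2F6 act mainly as repressors, and E2F7 and E2F8 are atypical repressors that bind DNA without DP. The pocket proteins RB (Rb1), p107 (Rbl1) and p130 (Rbl2) bind E2Fs and hold their target genes down until cyclin-dependent kinases phosphorylate them. In resting lymphocytes p130 with E2F4 forms the DREAM complex, which represses cell cycle genes, and p107 is known as a pocket protein of dividing cells.

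All E2F members and Rbl1 were higher in lymphoma, Rbl2 was lower, and Rb1 was not past the threshold. Tests used edgeR's quasi-likelihood fit, with p adjusted by Benjamini-Hochberg over all tested genes and 0.05 as threshold. Of the 10 members 8 rose and 1 fell, where 24.7% of all tested genes were called higher, 21.9% lower and 46.6% in either direction. The median log2 fold change of the members was 1.36, against 0.04 over all tested genes. In CPM (counts per 1000000 of the scaled library), the same 8 members had every lymphoma above every CD4 library and Rbl2 had all below. Over all tested genes, 44.9% had groups that did not overlap. For E2f6 this rests on 14.7 CPM in lymphoma 53 against 14.6 CPM in CD4 1, and it depends on the scaling factors. Lymphoma 53 had 161 counts among 11170704 reads in genes, a smaller share than 153 among 10320730 in CD4 1. With library size scaling alone the groups of E2f6 therefore overlap. The members were picked with results of these samples known, so these counts of members describe them and are not independent evidence.

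Reads in genes numbered 11170704 to 15769679 per lymphoma and 8099960 to 10808828 per CD4 library. T cell markers summed to 2972 to 3112 CPM in CD4 and 2014 to 4346 CPM in lymphoma, with 0 of 10 higher and 1 lower. Their median log2 fold change was -0.34. Cd3e, a chain of the T cell receptor complex, stood at 150 to 217 CPM in lymphoma and 138 to 192 CPM in CD4. Cd4 was lower in lymphoma (6.04 to 71.9 CPM against 199 to 263, edgeR adjusted p = 0.0111). B cell markers summed to 1283 to 1542 CPM in CD4 and 7.76 to 13.7 CPM in lymphoma, with 10 of 10 lower. Cd8a, a marker of the other main class of T cells, was also present in CD4 at 25.6 to 31.8 CPM. Lymphoma 53 had 29.4 CPM of Cd8a and the other 5 lymphomas 0.0645 to 1.53 CPM (edgeR adjusted p = 0.207). Myeloid markers summed to 823 to 1039 CPM in CD4 and 65.1 to 2169 CPM in lymphoma, with 5 of 10 lower, among them Ctss, a lysosomal protease. Erythroid markers summed to 106 to 364 and 14.2 to 889 CPM, with Gata1 as the 1 gene lower. Stromal and thymic epithelial markers summed to 217 to 240 and 97.5 to 181 CPM, with 2 of 7 tested genes higher and 2 lower. Epcam, 1 of those higher, had 1.59 ± 0.474 CPM (SD, n = 3) in CD4 and 23.0 ± 15.7 CPM in lymphoma (edgeR adjusted p = 0.000577). In the same list Dcn had 0 counts in each CD4 library and 4.22 CPM on average in lymphoma. Kdr had 3.97 ± 2.18 CPM (SD, n = 3) in CD4 and 0.105 ± 0.171 CPM in lymphoma. The part of these other cells in the results below was not tested, and fewer cells of a type cannot be told apart from less RNA per cell.

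Promoter sequence was available from RefSeq (GRCm38.p6) for 8 of the 10 members, as windows from 250 bases before to 50 after a start site. These windows were searched on both strands for an E2F site (TTTCCCGC, TTTGGCGC, TTTCGCGC or TTTGCCGC), for the CHR element TTTGAA that the MuvB core of DREAM binds, and for the E-box CACGTG that MYC proteins bind. An E2F site was found for E2f2, E2f3, E2f7 and Rbl1, while 2.26% of all 32851 windows held one. A CHR element was found for E2f2, E2f3, E2f8 and Rbl2, against 17.9% of all windows, and an E-box for E2f3 alone, against 7.15%. The CHR match of E2f2 and the E-box of E2f3 lie in windows of further start sites, 8388 and 1672 bases inside the genes as GENCODE release M21 annotates them. Shown are the bases before the start of 3 members that rose and carry an E2F site there, and of Rbl2, the member that fell, with E2F sites and CHR elements in capitals and the start site following the last base.

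Rbl1 (chr2:157204535-157204784, minus strand): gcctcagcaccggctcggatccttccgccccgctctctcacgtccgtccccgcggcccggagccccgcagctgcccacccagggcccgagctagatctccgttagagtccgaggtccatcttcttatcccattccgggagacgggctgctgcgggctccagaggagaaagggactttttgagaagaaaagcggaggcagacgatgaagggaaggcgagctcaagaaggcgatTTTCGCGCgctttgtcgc
E2f3 (chr13:29986064-29986313, minus strand): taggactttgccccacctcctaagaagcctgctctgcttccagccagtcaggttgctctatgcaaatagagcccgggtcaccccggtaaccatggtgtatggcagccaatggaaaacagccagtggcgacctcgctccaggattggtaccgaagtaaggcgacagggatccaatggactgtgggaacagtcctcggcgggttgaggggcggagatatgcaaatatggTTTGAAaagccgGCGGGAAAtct
E2f7 (chr10:110745189-110745438, plus strand): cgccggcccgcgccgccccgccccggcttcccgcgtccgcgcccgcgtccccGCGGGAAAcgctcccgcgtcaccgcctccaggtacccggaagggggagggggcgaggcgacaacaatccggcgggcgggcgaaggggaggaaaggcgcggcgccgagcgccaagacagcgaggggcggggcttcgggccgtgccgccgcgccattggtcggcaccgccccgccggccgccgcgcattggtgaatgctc
Rbl2 (chr8:91069807-91070056, plus strand): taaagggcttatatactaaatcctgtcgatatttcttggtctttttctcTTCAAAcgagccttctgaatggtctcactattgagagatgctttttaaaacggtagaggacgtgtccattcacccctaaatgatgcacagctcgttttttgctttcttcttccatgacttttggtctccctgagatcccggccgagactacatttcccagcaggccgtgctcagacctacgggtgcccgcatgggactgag

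In Rbl1 the E2F site TTTCGCGC begins 18 bases before the start. In E2f3 a CHR element begins 23 bases and an E2F site, read on the other strand, 11 bases before the start. The E2F site of E2f7 begins 198 bases before the start, also on the other strand. The Rbl2 stretch holds no match to the E2F letters and 1 CHR match 201 bases before the start, and it was less rich in G and C (46.8%) than those of Rbl1 (63.6%), E2f3 (55.6%) and E2f7 (79.2%). The E2F site of E2f2 begins 39 bases after the start of another window than the one with its CHR match. The only E2f1 window begins from a start site 466 bases inside the annotated gene, so the bases before the gene itself were not searched. A match describes letters in a window and does not show that a protein binds there.

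The activating E2Fs rose, and E2f1 had the largest fitted change of the 10 members. E2f1 (ENSMUSG00000027490, chr2:154559407-154569892 in GRCm38, minus strand) stood at 4.29, 5.88 and 4.86 CPM in CD4 1, 2 and 3. In lymphoma it ranged from 43.4 to 68.6 CPM with a median of 51.4. The groups lay far apart, a 10.7-fold difference (log2 3.42, SE 0.237, edgeR adjusted p = 7.59e-07). The highest lymphoma was lymphoma 53.

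E2f2 (ENSMUSG00000018983, chr4:136172394-136196057, plus strand), an activating member known from studies of T cell proliferation, already had 88.3, 84.7 and 55.96 CPM in CD4. It reached 140 to 194 CPM in lymphoma with a median of 152. The difference was 2.12-fold (log2 1.08, SE 0.197, edgeR adjusted p = 0.000836), and CD4 3 was the lowest library. E2f3 (ENSMUSG00000016477, chr13:29906575-29986063, minus strand) had 13.5, 6.36 and 6.51 CPM in CD4, with CD4 1 high, and 22.3 to 45.1 CPM in lymphoma with a median of 42.1. Lymphoma 53 was the low sample and the other 5 lay at 35.3 CPM or above. On the log2 scale the change of E2f3 was 2.12 (SE 0.323; edgeR adjusted p = 0.00025). E2f3 makes a long and a short protein from different start sites, and counts per gene do not separate them.

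**Figure D1:**
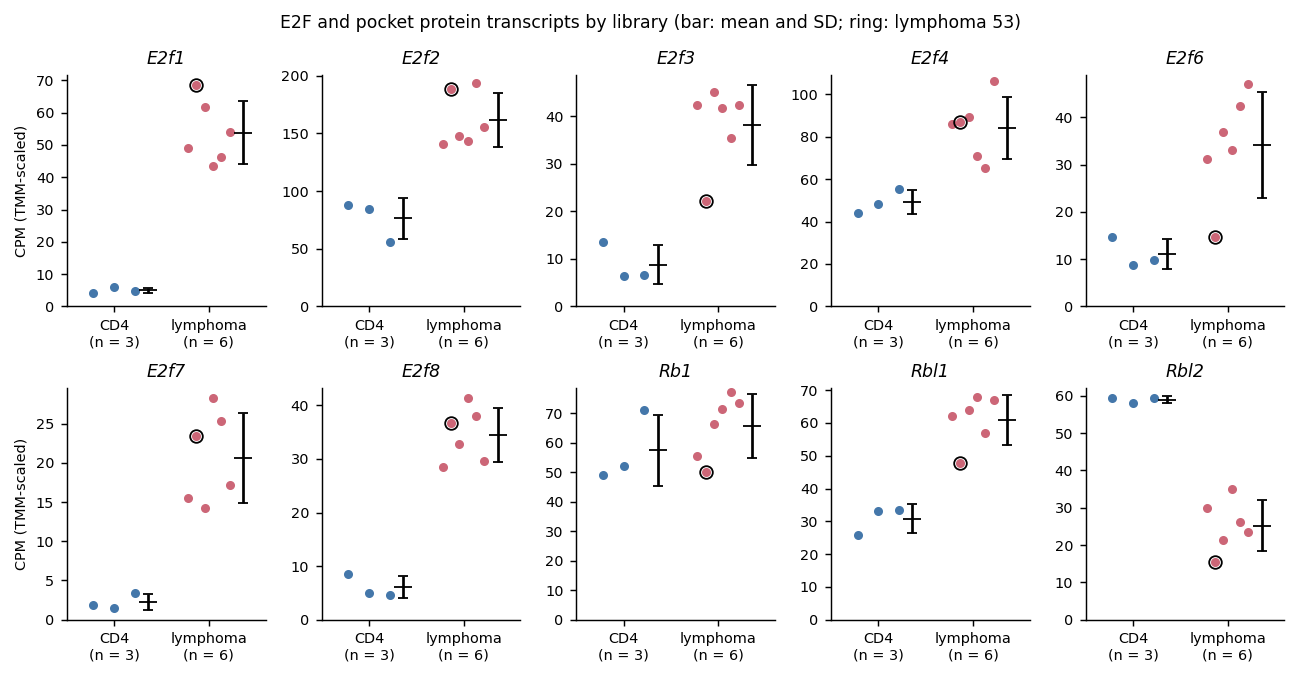
CPM (TMM-scaled, linear axes from 0) of the 10 members in 3 CD4 and 6 lymphoma libraries; points are libraries, the bar beside them is the mean with its SD, and a ring marks lymphoma 53. On this scale only Rb1 has overlapping groups. E2f6 was almost equal in lymphoma 53 and CD4 1, in an order that reverses with library size alone. Rbl2 is the member that is lower in lymphoma.

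The repressive E2Fs also rose. E2f4 (ENSMUSG00000014859, chr8:105297663-105305370, plus strand), the E2F of the DREAM complex in resting cells, had 44.2, 48.2 and 55.5 CPM in CD4 and 65.2 to 106 CPM in lymphoma, with a median of 86.3. Its log2 change of 0.77 (SE 0.187, edgeR adjusted p = 0.0053) was the smallest among the 7 E2F members, and with the trend of counts with GC content and length removed it was 0.49 (edgeR adjusted p = 0.0461). E2f6 (ENSMUSG00000057469, chr12:16810963-16839742, plus strand) lacks the pocket protein binding part and works with a Polycomb complex, PRC1.6. It had 14.6, 8.76 and 9.72 CPM in CD4 and 14.7 to 47.1 CPM in lymphoma, with a median of 35.0. Lymphoma 53 and CD4 1 were almost equal, and the other 5 lymphomas stood at 31.1 CPM or above. On the log2 scale the change of E2f6 was 1.63 (SE 0.347; edgeR adjusted p = 0.00231).

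The atypical E2Fs rose from low levels in CD4. E2f7 (ENSMUSG00000020185, chr10:110745439-110787384, plus strand) had 1.91, 1.44 and 3.39 CPM in CD4, which are 20, 12 and 37 counts, and 14.3 to 28.2 CPM in lymphoma with a median of 20.3. Its log2 change was 3.18 (SE 0.391, edgeR adjusted p = 5.17e-05). E2f8 (ENSMUSG00000046179, chr7:48866429-48881596, minus strand) had 8.49, 5.04 and 4.68 CPM in CD4 and 28.5 to 41.4 CPM in lymphoma with a median of 34.7. Its log2 change was 2.50 (SE 0.268, edgeR adjusted p = 1.89e-05), and no lymphoma came near the CD4 libraries for either gene. Both genes act as brakes on E2F1 and its targets in S phase. Like E2f1, both were higher in 6 of 6 lymphomas than in any CD4 library, as were 22.6% of all tested genes. Against the median of the other lymphomas, E2f1 lay on the same side as E2f7 in 2 of 6 and as E2f8 in 2 of 6. On this measure each gene has as many lymphomas above as below. Such counts therefore cannot tell whether the atypical E2Fs varied with E2f1 among the lymphomas.

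Of the pocket protein genes Rbl2 fell, Rbl1 rose and Rb1 was not past the threshold. Rbl2 (ENSMUSG00000031666, chr8:91070057-91123844, plus strand) had 59.5, 58.0 and 59.5 CPM in CD4, the tightest group of any member, with an SD of 0.02 in log2 CPM. These are 624, 483 and 649 counts, at which counting noise alone is larger, so this SD is not read as a trait of Rbl2. Rbl2 had 15.5 to 35.0 CPM in lymphoma, with a median of 24.8, the lowest in lymphoma 53 and the highest in lymphoma 70. Its log2 change was -1.23 (SE 0.223, edgeR adjusted p = 0.000857), a 2.34-fold lower level in lymphoma.

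Rbl1 (ENSMUSG00000027641, chr2:157145893-157204534, minus strand) had 25.8, 33.1 and 33.6 CPM in CD4 and 47.7 to 68.0 CPM in lymphoma with a median of 63.0. It rose by 0.98 on the log2 scale (SE 0.179, edgeR adjusted p = 0.000837), and lymphoma 53 was its lowest lymphoma. Rb1 (ENSMUSG00000022105, chr14:73183673-73325822, minus strand), the retinoblastoma gene, had 49.1, 52.0 and 71.1 CPM in CD4 and 50.1 to 77.0 CPM in lymphoma with a median of 69.0. The groups overlapped, since lymphomas 34, 53 and 56 lay below CD4 3 and lymphoma 53 also below CD4 2, and the log2 change of 0.19 (SE 0.193, edgeR adjusted p = 0.442) was not past the threshold. With the trend with GC content and length removed, Rb1 was called higher, at 0.55 (edgeR adjusted p = 0.0228). Rb1 overlaps 4 annotated genes, among them Rcbtb2 and Lpar6 on the other strand, and E2f3, E2f7, E2f8, Rbl1 and Rbl2 overlap 1 or 2 each. Strand use in counting is not stated, so reads of overlapping genes may be missing or mixed.

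**Figure D2:**
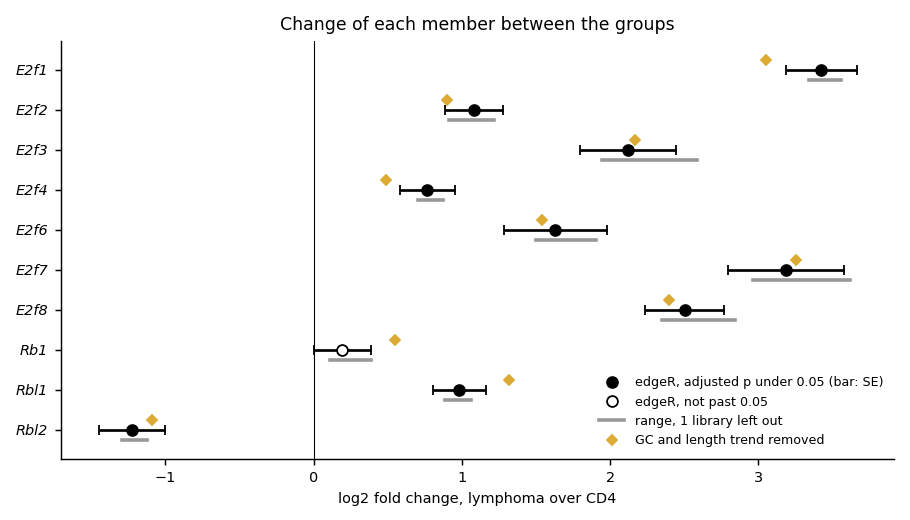
Log2 fold change of each member, lymphoma over CD4 (circles with SE bars; open where not past 0.05), the range when 1 library is left out (grey lines) and the value with the GC and length trend removed (diamonds). Rbl2 is the member left of 0, and E2f1 and E2f7 lie farthest right.

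Shares within a family do not depend on how libraries are scaled, but they are not corrected for transcript length, so they are compared between libraries and not between genes. Of the pocket protein counts, Rbl2 held 44.3%, 40.5% and 36.3% in CD4 and 13.7 to 20.2% in lymphoma with a median of 15.3%. Rbl1 held 19.2%, 23.2% and 20.4% in CD4 and 35.5 to 42.2% in lymphoma with a median of 41.5%. Every lymphoma thus had a smaller Rbl2 share and a larger Rbl1 share than any CD4 library, while Rb1 held 36.3 to 43.3% in CD4 and 37.6 to 48.1% in lymphoma, with overlap. The ratio of Rbl1 to Rbl2 counts was 0.433, 0.571 and 0.564 in CD4 and 1.94 to 3.07 in lymphoma. These shares rest on 1192 to 1790 pocket protein counts per CD4 library and 1241 to 2848 per lymphoma.

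The make-up of the E2F counts was taken the same way, over the E2F members alone, so E2f5 is not included. E2f1, E2f2 and E2f3 together held 60.5%, 60.4% and 47.9% in CD4 and 55.8 to 63.4% in lymphoma, with overlap, and their mean share was 3.10 percentage points higher in lymphoma but lower without CD4 3 (-1.10). Within that group E2f1 alone held 2.45 to 3.66% of these E2F counts in CD4 and 10.3 to 15.6% in lymphoma. E2f2 held 39.8 to 52.8% and 34.5 to 43.5%, with overlap. The atypical pair held 5.94%, 4.04% and 5.74% in CD4 and 10.3 to 17.3% in lymphoma, without overlap. E2f4 and E2f6 held 33.6 to 46.4% in CD4 and 23.0 to 33.9% in lymphoma, with lymphoma 86 just above CD4 1. The ratio of E2f1 to E2f4 counts was 0.0876 to 0.122 in CD4 and 0.507 to 0.791 in lymphoma.

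**Figure D3:**
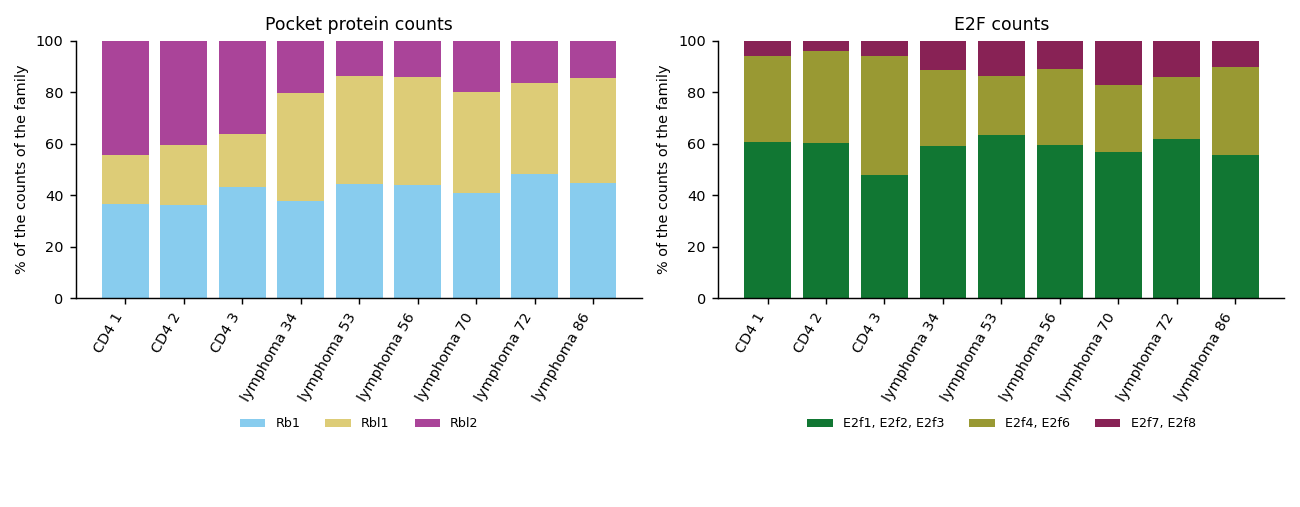
Share of the counts of the 3 pocket protein genes (left) and of the 7 E2F genes (right) held by each gene or group of genes, in percent, 1 stacked bar per library. The Rbl2 part is 36.3 to 44.3% in CD4 and 13.7 to 20.2% in lymphoma, and the atypical E2F part is larger in every lymphoma than in any CD4 library.

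Among the lymphomas, lymphoma 53 was the lowest for several members. Measured against the median of the other 5 lymphomas in log2 CPM, lymphoma 53 was lower in E2f6 (-1.32), in E2f3 (-0.92), in Rbl2 (-0.75), in Rb1 (-0.51) and in Rbl1 (-0.42). In the same library E2f1 (0.48), E2f7 (0.44) and E2f2 (0.34) were above that median and E2f4 (0.01) lay at it. The median absolute deviation of lymphoma 53 over the members was 0.46, against 0.13 to 0.24 in the other lymphomas. Over all tested genes lymphoma 53 deviated more, at 0.64 against 0.27 to 0.36 in the others. It was also the 1 lymphoma with Cd8a at the level of the CD4 libraries (29.4 CPM). Of the lymphomas it had the fewest reads in genes (11170704) and the smallest share of reads in genes (38.7%). The part of these traits in the member values was not tested. E2f6 was the 1 member below -1 in lymphoma 53, as were 18.6% of all tested genes. Without lymphoma 53 the SD of E2f3 within lymphoma went from 0.38 to 0.13 in log2 CPM, and that of E2f6 from 0.59 to 0.25. Without it 9 of the 10 members were still called, and the log2 fold changes of E2f3 and E2f6 were 2.23 and 1.78.

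On the same measure E2f7 ran from -0.71 in lymphoma 56 to 0.71 in lymphoma 70, a wider range than that of E2f8.

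**Figure D4:**
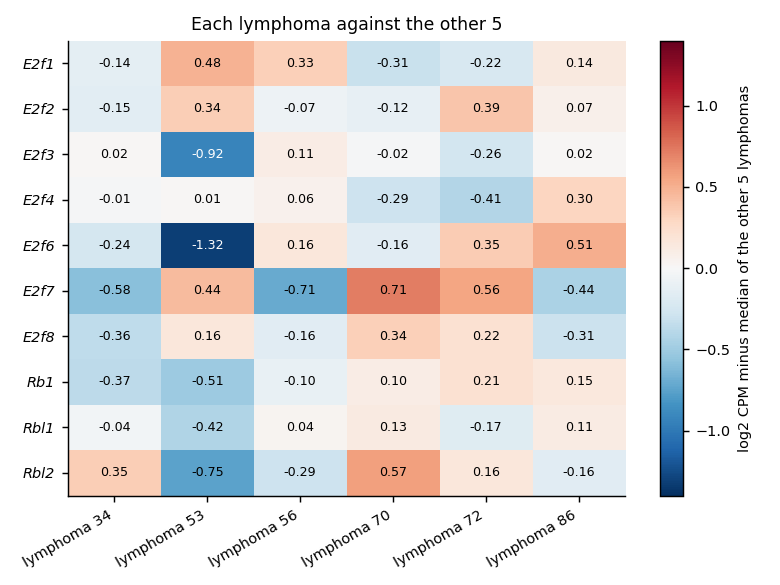
Log2 CPM of each member in each lymphoma minus the median of the other 5 lymphomas (red above, blue below, value printed in each cell). Lymphoma 53 is low for E2f6 (-1.32), E2f3 (-0.92) and Rbl2 (-0.75) and high for E2f1 (0.48).

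Among the partners of the E2F and pocket proteins, 4 of 10 genes rose and 0 fell, with a median log2 fold change of 0.66, beside 24.7% higher and 21.9% lower over all tested genes. Mybl2 (B-MYB), which joins the MuvB core once pocket proteins leave it, rose the most, with 4.75 ± 2.18 CPM (SD, n = 3) for CD4 and 37.9 ± 11.8 CPM (SD, n = 6) for lymphoma, a log2 change of 2.99 (SE 0.360, edgeR adjusted p = 4.48e-05). Foxm1, the forkhead factor of G2/M genes, rose by 2.87 (SE 0.310), Tfdp2, a DP subunit, by 1.69 (SE 0.318) and Lin9 of the MuvB core by 0.77 (SE 0.193). The other MuvB genes Lin37, Lin52, Lin54 and Rbbp4 were not past the threshold (edgeR adjusted p = 0.501, 0.669, 0.0719 and 0.589). E2f5, the close relative of E2f4, stood at 10.6 ± 4.404 CPM in CD4 and 10.4 ± 1.22 CPM in lymphoma, and was not past the threshold (log2 change -0.04, edgeR adjusted p = 0.933). Tfdp1, the other DP subunit, had 16, 1 and 0 counts in CD4 and 19 to 40 in lymphoma (edgeR adjusted p = 0.163).

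Of 15 kinase, cyclin and inhibitor genes that act on pocket proteins, 14 were tested, 8 rose and 2 fell (24.7% and 21.9% of all tested genes), and the median log2 fold change was 1.94. Cdk6, a G1 kinase that phosphorylates pocket proteins, rose the most, with 86.1 ± 5.21 CPM (SD, n = 3) for CD4 and 1468 ± 566 CPM (SD, n = 6) for lymphoma, a log2 change of 4.09 (SE 0.441, edgeR adjusted p = 2.69e-05). Cdkn1b, the inhibitor p27, fell the most, from 344 ± 53.2 to 64.0 ± 12.4 CPM, a log2 change of -2.43 (SE 0.186, edgeR adjusted p = 1.62e-06). Inhibitors did not move one way: Cdkn2a, Cdkn2c and Cdkn1c rose, from low means in CD4 (0.850, 4.45 and 0.531 CPM). The call of Cdkn1c was the weakest of these (3.43 CPM in lymphoma, edgeR adjusted p = 0.0235). The cyclin Ccnd3 was the other gene that fell.

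Genes known to be controlled by E2F and DREAM were nearly all higher. Of 30 G1/S genes known as E2F targets, 29 rose and 0 fell, with a median log2 fold change of 2.99, and Slbp (0.82, edgeR adjusted p = 0.08) was the exception. Of 20 G2/M genes known as DREAM targets, 20 rose, with a median of 3.54. Bub1b of the spindle checkpoint rose the most, with 4.44 ± 0.134 CPM (SD, n = 3) for CD4 and 97.0 ± 15.8 CPM (SD, n = 6) for lymphoma, a log2 change of 4.44 (SE 0.218, edgeR adjusted p = 1.34e-07). The background of higher calls was 24.7% in both cases, and these genes also mark dividing cells of any kind.

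Promoter letters of both classes of target were counted in the same way. An E2F site was present for 14 of 25 G1/S genes with a window and for 0 of 17 G2/M genes, and a CHR element for 4 of 25 and 12 of 17. The shares over all windows were 2.26% and 17.9%. Genes with more than 1 start site have more than 1 window, so these counts are per gene and the background is per window. Both classes were listed as known E2F or DREAM targets, so their share of sites is not independent evidence. Of the members that rose, E2f2, E2f3, E2f7 and Rbl1 shared the E2F letters with the G1/S class. E2f6 and E2f8 rose without an E2F match, E2f4 had no window, and E2f1 was not searched before its gene start. Rbl2, which fell, shared the CHR letters with the G2/M class, but so did E2f2, E2f3 and E2f8, which rose. The CHR letters thus do not set Rbl2 apart from the members that rose.

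E2F6 works with PRC1.6, which holds germline genes silent. Of 11 PRC1.6 partner genes 6 rose and 0 fell, with a median log2 fold change of 0.77, where 24.7% of all tested genes were called higher and 21.9% lower. Cbx3 rose the most (1.55, SE 0.315, edgeR adjusted p = 0.00178), with 199 ± 55.1 CPM (SD, n = 3) for CD4 and 583 ± 175 CPM (SD, n = 6) for lymphoma, with overlap through lymphoma 53 (251 CPM) and CD4 1 (260 CPM). Mga, the scaffold, and Max, its partner, were not past the threshold (edgeR adjusted p = 0.462 and 0.933). Of 12 germline genes known to be repressed through this complex, 10 were at or under 2 CPM in every library, 3 of them with 0 counts throughout, and 2 were tested. Neither was called by edgeR, DESeq2 or limma voom, and 0 had an unadjusted edgeR p under 0.05. Stag3 had at most 9.06 CPM in lymphoma and 0.763 CPM in CD4 (edgeR adjusted p = 0.234).

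**Figure D5:**
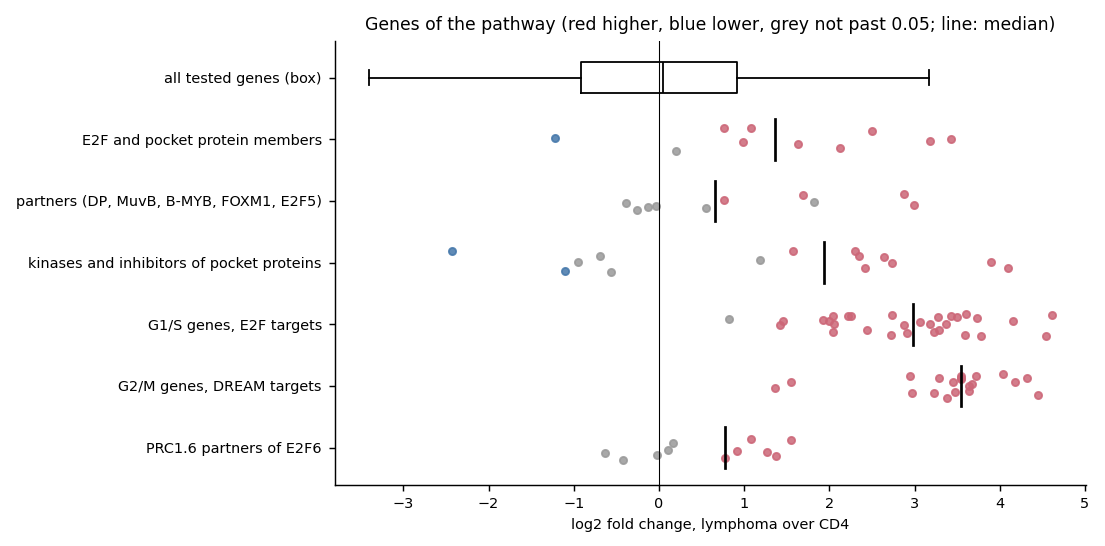
Log2 fold change of each tested gene, lymphoma over CD4, by list (points; red called higher, blue called lower, grey not past 0.05; line, median), with all 15401 tested genes as a box (quartiles, whiskers from the 5th to the 95th percentile). The medians of the G1/S (2.99) and G2/M (3.54) lists lie to the right of that of the members (1.36) and of all genes (0.04).

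Genes whose log2 CPM most resembled a member over the 9 libraries were taken as a description, among 8825 other genes with an average log2 CPM of at least 3. The highest Pearson r was with Dkc1, Alpl and Ydjc for E2f1 (0.997, 0.996 and 0.996), Med22, Klf10 and Marcksl1 for E2f8 (0.996, 0.995 and 0.992), Memo1, Ncapg2 and Epb4.1l4a for Rbl1 (0.995, 0.988 and 0.986), and Tmem154, Usp25 and Wasl for Rbl2 (0.989, 0.988 and 0.986). The libraries form 2 separate groups, so high values are common: 1461 genes had an r over 0.9 with E2f1 and 529 with Rbl2.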

How the data were processed

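RNA of 9 mouse samples was extracted with an automated kit and sequenced from transcript ends, per the labels. Raw read counts per Ensembl gene were deposited, per the file headers. FastQC, HISAT2, SAMtools and HTSeq and the builds mm10 and GRCm38 are named in the submitters' processing notes. Their versions, roles, the annotation release and the strand setting are not given in the sources used here. The 5 summary rows of reads in no gene were left out. Reads in genes were 38.7 to 49.1% of all reads in lymphoma and 27.8 to 35.0% in CD4.

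The test was that of edgeR 4.0.16, run in R 4.3.3 (filterByExpr with a minimum count of 10, TMM scaling, glmQLFit with robust estimation, glmQLFTest) over 15401 genes and all 9 libraries. A check on simulated data used far fewer changed genes than were called here, so it does not speak for shifts of this size. SEs were derived from the F statistic and the fold change. CPM used library sizes after TMM scaling, with a prior count of 2 for log2 CPM. Alternatives were RLE, upper quartile and library size scaling, 2 other filters, DESeq2 1.42.0, limma 3.58.1 voom, a threshold of 0.01, 1 library left out, lymphomas 34, 70 and 72 averaged, and removal of the trend with GC content and length of GENCODE M21 transcripts.

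The members and gene lists were chosen with earlier results of these data known. The genes named are the members, the largest rise and the largest fall past 0.05 in every other list, and the 3 genes most like E2f1, E2f8, Rbl1 and Rbl2, and 1 gene that this rule names is not reported here. Others (Foxm1, Tfdp1, Tfdp2, E2f5, the MuvB genes, Slbp, Cdkn1c, Cdkn2a, Cdkn2c, Ccnd3, Mga, Max, Stag3, Cd3e, Cd8a and Epcam) were added for their role after their values were seen. Protein sequences were not analysed here.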

Additional observations from a re-analysis of the deposited data

Results flagged for a closer look

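Each of 27 values per library (10 members, 11 other named genes and 6 family shares) was examined for a lymphoma far from the other 5, using Dixon's test of the gap to the next value. None of the 10 members was picked out. Chance picks out about 1 in 20 groups. Bub1b was 127 CPM in lymphoma 86, where the next lymphoma had 96.1 CPM. Kdr stood at 0.436 CPM in lymphoma 56 against 0.131 CPM in the next, and Fcer2a, a B cell gene, at 0.218 CPM in lymphoma 56 against 0.0722 CPM. These are 6 against 2 counts for Kdr and 3 against 1 for Fcer2a, too few to read as a difference.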

How the results depend on the processing

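Over 19 alternatives the count of members called stayed at 9 or 10, and it was 10 once GC content and length were corrected for, which called Rb1. Each of the other 9 members kept its direction and its call under all 19. Leaving out 1 library left 9 members called in each case and moved no called member's fold by over 1.5 times. The largest such move was E2f3 without CD4 1 (log2 2.59). The number of all genes called ran from 4915 at a threshold of 0.01 to 8137, and from 5871 to 8137 with 1 library left out. Genes called in the pathway lists together numbered 69 and ran from 67 to 73. The share of activating E2Fs reversed without CD4 3 (-1.10 percentage points, and up to 5.22 over the libraries left out). That of Rbl2 stayed between -25.9 and -21.9 points. Higher calls outnumbered lower ones with TMM (3798 and 3376) but not with upper quartile scaling (3414 and 3707). The median log2 fold change of all genes was 0.04 with TMM, -0.06 with upper quartile scaling and 0.20 without a filter. The call of Cd4 was lost at a threshold of 0.01. E2f7 had 12 to 37 counts per CD4 library, which limits the precision of its change. No paired analysis was possible because the replicate numbers of the groups do not overlap.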
